A study of Mus musculus with 36 samples.

Results

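Peaks of ribosome-protected fragments (RPFs) that lie over the last 50 codons of an mRNA's coding sequence are described here, as they were called in 12 footprint libraries from mouse brain. A peak is a short stretch of a transcript where footprint coverage rises to a local summit (the zenith), and it was deposited as a transcript, a start, an end and the coverage at the zenith (its height). A peak was taken as a member when the middle of its interval fell in the last 50 codons, stop codon included, of an annotated coding sequence of at least 200 codons. Of 278002 deposited peaks, 246357 lay in such coding sequences and 29916 were members, which is 12.1% of the peaks in coding sequences and 10.8% of those deposited. The members fell in 3266 of the 5111 genes with a peak in a coding sequence (63.9%). The choice rests on position alone. In the whole set, 2950 peaks lay just inside the boundary, 45 to 49 codons before the stop, and 2736 just outside it, 50 to 54 codons before the stop.

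The 12 libraries came from brains of postnatal day 5 mice, either C57BL/6 wild type (WT) or FMR1 KO, which lack the fragile X protein FMRP in all cells. Each preparation pooled 10 brains, so that no value belongs to 1 animal, and the lysates were made in a buffer with 10 mM MgCl2 before nuclease digestion. Digestion was the study's standard nuclease treatment, at room temperature with RNase scaled to the RNA concentration. Polysomes were separated on a sucrose gradient, and footprints were taken from the pellet, which holds RNA granules with densely packed ribosomes, and from fraction 5/6, which holds ribosome clusters that sediment less far. This gave 4 groups of 3 libraries, namely WT pellet, FMR1 KO pellet, WT fraction 5/6 and FMR1 KO fraction 5/6. The 3 replicates of a group carried different linkers and were joined for reverse transcription and PCR, so the group and its shared library preparation cannot be told apart, and the p-values below measure the spread between these libraries. The series holds 36 samples, and the other 24 have no peak lists here. They are RNA-seq and footprints made with a low nuclease treatment at lower magnesium.

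A ribosome that reaches a stop codon does not find a tRNA for it. Release factors enter the A site instead, the finished protein is cut from the last tRNA, and the ribosome is then split and recycled. A footprint spans the codons held by the ribosome and several on either side, so a ribosome waiting at the stop codon protects the last codons of the coding sequence and the first bases of the 3′ untranslated region. Ribosomes over the last 50 codons but short of the stop are still elongating, and much of what they have most recently joined together is still inside the exit tunnel. Brain RNA granules are known for carrying mRNAs whose ribosomes have paused during elongation.

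A check of the libraries against their labels came first. Fmr1 footprints are given in CPM, counts scaled to 1000000 for a library after removing Cdk8, which took 36.7% to 63.4% of all footprint counts. They stood at 67.8, 67.1 and 64.6 in the WT pellet and at 4.93, 4.79 and 4.81 in that of FMR1 KO. In fraction 5/6 they were 5.98, 6.82 and 10.7 in the FMR1 KO libraries and 100.1 and 68.6 in WT replicates 1 and 2, but 3.17 in the library labelled WT fraction 5/6 replicate 3. That library is therefore against its label on this gene. It also lay nearer to the pellet than the other fraction 5/6 libraries did. Transcripts with a peak had a median coding sequence of 509.5 codons in it, inside the pellet range of 492 to 521 and outside the range of the other 5 fraction 5/6 libraries, 435 to 473. Over sites outside the last 50 codons that 2 libraries shared (2246 to 5152 sites), the correlation of its log2 heights had a median of 0.829 with the pellet libraries and 0.754 with the other fraction 5/6 libraries, while these 5 gave 0.779 with the pellet and 0.818 among themselves. In the last 50 codons its medians were 0.840 and 0.808. The main comparisons of fractions and genotypes are therefore given with and without it. Total counts ran from 21710393 to 40174168 in the pellet and from 6765065 to 33212827 in fraction 5/6. All 5 neuronal, 4 astrocyte, 4 oligodendrocyte and 3 microglial marker genes fixed for the tissue check were detected in both fractions, with summed neuronal markers at 5710 to 8740 CPM in the pellet and 5756 to 12470 in fraction 5/6. Detected means a count above 0 in some library, a rule that the off-tissue markers also met. The 2 red blood cell genes summed to 2.40 to 8.67 CPM in the pellet and 2.16 to 9.80 in fraction 5/6. Of the 2 liver genes, Apoa1 reached at most 0.168 and 0.303 CPM, and Alb was not in the gene table. Fmr1 itself had no member peak, and only 2 coding-sequence peaks in 1 library.

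Windows of 10 codons around the 10 tallest members, relative to the rest of their own mRNA, show what these peaks sit on. They are the sites with the highest mean relative height among the 60 found in all 12 libraries (both terms are defined where their values are given), and the beta-tubulin gene Tubb2b, which the study drew as its example, is added. Each is read 5′ to 3′ on the sense strand, the capitals mark the codon at the middle of the peak, and a sequence that ends in tga ends at the stop codon.
Plekhb2, 46 codons before the stop: cagtacccgtatGCAggagtttatggacaa
Ebna1bp2, 5 codons before the stop: agacagaaactgAAGagtaaagcccgctga
Ywhah, 40 codons before the stop: gatgctatagctGAGctggacacattaaac
Rgs2, 4 codons before the stop: cagatcaccacggagCCCcatgctacatga
Git1, 36 codons before the stop: ccagagccgggcGCCcctgtggacttccag
Hspbp1, 3 codons before the stop: agccctaccgacgacagcATGgatcgctga
2900011O08Rik, 25 codons before the stop: gagcccccacctAGCaagccaacagtggcc
Rab3c, 48 codons before the stop: gataacatcaacGTGaagcaaaccttcgag
Sod2, 25 codons before the stop: aaaaacgtcagaCCTgactatctgaaagct
Sept5, 4 codons before the stop: aagatgaagcagcaaATGcaagaccagtga
Tubb2b, 5 codons before the stop: gaggaggaagagGGCgaggatgaggcttga

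These windows are coding exon sequence of GRCm38. The Plekhb2 window crosses an exon junction, at chr1:34869390-34869405 in exon 7 and chr1:34876911-34876924 in exon 8 of 8. The others lie on the last exon of their transcript. On the forward strand these are Ebna1bp2 at chr4:118625841-118625870, Ywhah at chr5:33027061-33027090, Git1 at chr11:77506486-77506515, 2900011O08Rik at chr16:14099816-14099845 and Sod2 at chr17:13015082-13015111. On the reverse strand they are Rgs2 at chr1:144001680-144001709, Hspbp1 at chr7:4660771-4660800, Rab3c at chr13:110061944-110061973, Sept5 at chr16:18622740-18622769 and Tubb2b at chr13:34127471-34127500. In 4 of the 10 tallest sites, and in Tubb2b, the window runs into the stop codon, while the other 6 lie 25 to 48 codons upstream of it.

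The first question was where in the last 50 codons the peaks lie. Over all 12 libraries the number of peaks was greatest 5 codons before the stop, with 886 peaks at that codon, against a median of 584 a codon (534 to 654) from 10 to 49 codons before it. Codons 3 to 8 before the stop, 6 in all, were the ones above the highest of that range. At the stop codon itself the count dropped to 156. In 5-codon steps from the stop, 2544, 3866 and 2795 peaks were found at 0 to 4, 5 to 9 and 10 to 14 codons. The commonest position was 5, 5, 7, 6, 5 and 7 codons before the stop in the 6 pellet libraries (WT first) and 4, 5, 5, 4, 4 and 4 codons in the 6 fraction 5/6 libraries. The ranges of the fractions overlap at 5 codons, and the difference was not tested.

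**Figure D1:**
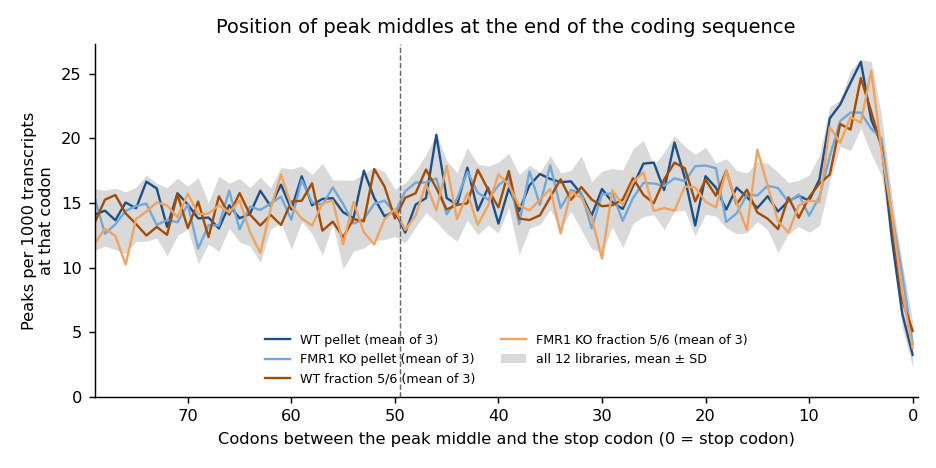
Peaks per 1000 transcripts (y axis) by the number of codons between the peak middle and the stop codon (x axis, 0 is the stop codon), with 1 line for the mean of 3 libraries of each group, a grey band for the mean ± SD of all 12 libraries and a dashed line at the boundary of the last 50 codons. All 4 lines are highest 4 to 6 codons before the stop, fall at the stop codon and show no step at the boundary.

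Peaks in the last 10 codons had another shape. Their median width was 29.7 ± 1.84 nt (SD, n = 12 libraries; 26 to 32), while peaks 10 to 49 codons before the stop were 24.5 ± 0.52 nt wide (24 to 25). Their intervals extended past the end of the coding sequence in 48.5 ± 3.84% of cases (41.7 to 54.9%), so near the stop an interval often held the first bases of the 3′ untranslated region. The mean middle of these peaks lay 16.4 ± 0.42 nt before the end of the coding sequence, at 16.5 ± 0.49 nt in the pellet and 16.2 ± 0.34 nt in fraction 5/6 (n = 6 each). By stop codon, a peak in the last 10 codons was found in 16.3 ± 1.70% of transcripts ending in TAA, 17.3 ± 1.74% of those ending in TAG and 17.2 ± 1.45% of those ending in TGA (n = 12), values that lie within each other's spread.

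The density of peaks was higher in the last 50 codons than in the rest of the same coding sequences. Counted over transcripts with a coding-sequence peak, the ratio of peaks per codon in the last 50 codons to peaks per codon elsewhere was 1.60, 1.60 and 1.65 in the WT pellet, 1.67, 1.71 and 1.65 in the pellet of FMR1 KO, 1.57, 1.55 and 1.70 in WT fraction 5/6 and 1.57, 1.56 and 1.53 in FMR1 KO fraction 5/6. All 12 lie above 1. On the log2 scale the mean was 0.69 ± 0.055 (SD, n = 12), a 1.61-fold density (0.68 over the 11 libraries without the one against its label), and an exact two-sided sign-flip permutation test gave p = 0.000488, the smallest it can give.

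The rise began well before the last 50 codons. Per 1000 codons there were 7.78 ± 1.71 peaks in the first 50 codons, 10.0 ± 0.71 between the first and last 50, 13.4 ± 1.01 in a stretch of 50 codons that ends 100 codons before the stop, 14.1 ± 1.10 at 50 to 99 codons, 15.6 ± 1.00 at 10 to 49 and 16.9 ± 1.35 in the last 10 (n = 12 libraries each). Close to the stop, neighbouring zones differed by little within a library. The last 50 codons held 1.13 ± 0.028 times the density of the 50 codons before them, above 1 in 12 of 12 libraries, and the last 10 codons held 1.09 ± 0.051 times that of codons 10 to 49, above 1 in 11 of 12 (0.986 to 1.16). The 1.61-fold ratio is against all of the upstream sequence, most of which had a lower density than the codons next to the boundary.

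**Figure D2:**
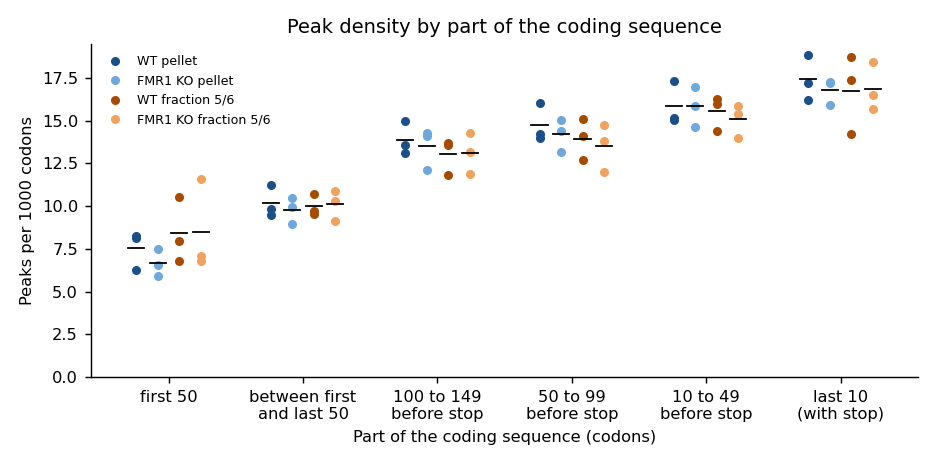
Peaks per 1000 codons (y axis) in zones of the coding sequence ordered from the start to the stop (x axis), with 1 point per library, coloured by group, and a bar at the mean of each group's 3 libraries. Averaged over the 12 libraries, density climbs from 7.78 in the first 50 codons to 16.9 in the last 10.

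Member peaks were only slightly taller than other peaks of the same mRNA. Height was compared as relative height, the log2 height of a peak minus the median log2 height of the peaks in the rest of that coding sequence in the same library, which takes out the amount of mRNA and the depth of the library. The median relative height of members was 0.083 ± 0.0147 (SD, n = 12 libraries), or 1.06-fold, above 0 in 12 of 12 libraries (exact two-sided sign-flip permutation test, p = 0.000488, the smallest it can give). In the last 10 codons the library medians averaged 0.075 ± 0.034 and at codons 10 to 49 0.084 ± 0.015, so the crowding of peaks at the stop did not come with taller ones. The tallest peak of a transcript lay in the last 50 codons in 16.8 ± 0.77% of transcripts with at least 3 peaks, where 11.1 ± 0.69% would follow from their length and 14.3 ± 0.56% of their peaks lie there. Absolute heights had a median of 16 reads of coverage, with 5% at or under 4, 5% at or over 80 and a maximum of 4638 on the beta-tubulin gene Tubb5. Of the members, 173 were deposited with a height of 0 and enter only counts of peaks. Among transcripts with a member peak, 53.6 ± 2.61% had just 1.

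The next question was whether pellet and fraction 5/6 differ in these peaks. Members made up 11.36%, 11.63% and 11.30% of coding-sequence peaks in the WT pellet, 11.62%, 12.52% and 11.58% in the pellet of FMR1 KO, 12.73%, 13.59% and 11.95% in WT fraction 5/6 and 13.52%, 12.71% and 13.77% in FMR1 KO fraction 5/6. The shares of the pellet, 11.7 ± 0.44% (SD, n = 6), were lower than those of fraction 5/6, 13.05 ± 0.70% (n = 6), by 1.38 percentage points, with the highest pellet library above the lowest of fraction 5/6. An exact two-sided permutation test that exchanged fractions within genotype gave p = 0.005, the smallest it can give (adjusted p = 0.04 over the 8 comparisons of 4 measures). Within WT the difference was -1.33 points and within FMR1 KO -1.43 points, in each case with no overlap and with exact permutation p = 0.1, the smallest that 3 against 3 allows. Leaving out the library labelled WT fraction 5/6 replicate 3, the difference was -1.58 points (adjusted p = 0.02, exact permutation). Over the 12 libraries left out in turn, the adjusted threshold was passed in 5 (adjusted p from 0.02 to 0.12, exact permutation), with the direction kept in all 12.

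The lengths of the transcripts moved with this difference. Transcripts with a peak had a median coding sequence of 508 ± 12.2 codons in the pellet libraries (492 to 521) and 463 ± 27.2 codons in fraction 5/6 (435 to 509.5; 454 ± 16.8 and 435 to 473 without the library against its label, which does not overlap the pellet), and they carried 6.91 ± 0.61 against 6.01 ± 0.69 peaks each (n = 6). The part of length in the difference of share was not tested. Over the 1269 transcripts with a coding-sequence peak in all 12 libraries, the share was 13.7 ± 0.37% in the pellet and 13.8 ± 0.67% in fraction 5/6, a difference of -0.12 points (exact permutation p = 0.71, adjusted p = 0.863), which does not pass the test.

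Density relative to the rest of the coding sequence leaned the other way over all transcripts. It was 0.72 ± 0.037 on the log2 scale in the pellet (1.65-fold) and 0.66 ± 0.054 in fraction 5/6 (1.58-fold), a difference of 0.063 (exact permutation p = 0.055, adjusted p = 0.22). The library labelled WT fraction 5/6 replicate 3 decides this call, since without it fraction 5/6 stood at 0.64 ± 0.013 and the difference was 0.083 (exact permutation p = 0.005, adjusted p = 0.02). On the 1269 shared transcripts the values were 0.54 in the pellet and 0.55 in fraction 5/6 (difference -0.014, exact permutation p = 0.725), and without that library the difference was -0.011. Neither relative height (difference 0.0044, exact permutation p = 0.685) nor the share of members in the last 10 codons, 21.3 ± 0.61% in the pellet and 21.5 ± 0.99% in fraction 5/6 (exact permutation p = 0.7), passed the test between fractions. Without that library these 2 differences were 0.0088 and -0.16 points (adjusted p = 0.56 and 0.89, exact permutation).

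**Figure D3:**
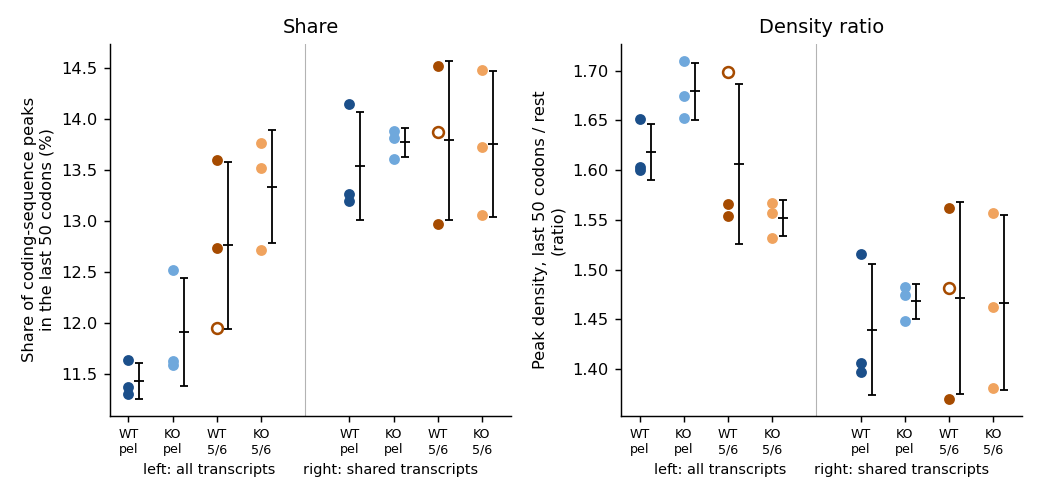
Share of coding-sequence peaks in the last 50 codons (percent) and peak density in the last 50 codons over that in the rest (ratio) by group, with 1 point per library, all transcripts on the left and the 1269 shared transcripts on the right; black marks are the mean ± SD of 3 libraries, pel stands for pellet, the hollow point is the library labelled WT fraction 5/6 replicate 3, and the y axes do not start at 0. In share over all transcripts the pellet and fraction 5/6 do not overlap within a genotype, and over the shared transcripts they do.

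Loss of FMRP was compared over both fractions and within each. The share of members was 12.6 ± 0.92% in the 6 FMR1 KO libraries and 12.1 ± 0.90% in the 6 WT libraries, a difference of 0.53 points (exact two-sided permutation test within fraction, p = 0.11, adjusted p = 0.293). Relative density differed by 0.0023 on the log2 scale (exact permutation p = 0.94), relative height by 0.0092 (exact permutation p = 0.35) and the share in the last 10 codons by 0.050 points (exact permutation p = 0.935). None of these passed the test. Within a fraction the WT and FMR1 KO libraries overlap in each measure, with 1 exception. Relative density in the pellet was 0.75 in FMR1 KO and 0.69 in WT, a difference of 0.053 with no overlap (exact permutation p = 0.1, the smallest that 3 against 3 allows), while in fraction 5/6 it was 0.63 and 0.68, a difference of -0.049 (exact permutation p = 0.5). The fraction 5/6 difference rests on the library labelled WT fraction 5/6 replicate 3, since without it WT stood at 0.64 and the difference was -0.0075 (exact permutation p = 0.9, 3 libraries against 2). With that library set aside, the 4 differences over both fractions were 0.32 points, 0.023, 0.014 and 0.098 points, again none past the adjusted threshold (adjusted p from 0.35 to 0.89, exact permutation).

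Positions were then followed from library to library. Peaks whose middles lay within 6 nt of the next along the transcript were joined into sites, since the lists give no position for the zenith. The joining ran in a chain, so the middles of a site in the last 50 codons spanned up to 36 nt. It gave 12953 sites in the last 50 codons of 3263 genes. Of these, 45.5% were found in at least 2 libraries, 9.28% (1202 sites) in at least 6 and 0.463% (60 sites, in 56 genes) in all 12 (65 sites in all of the 11 that remain without the library whose Fmr1 level is against its label), against 0.261% of all 126136 coding-sequence sites in all 12. In the rest of the coding sequence 37.1% of 113183 sites were found in at least 2 libraries, 5.26% in at least 6 and 0.238% in all 12. The last 10 codons recurred most, with 50.1% of 2477 sites in at least 2 libraries, 12.1% in at least 6 and 18 sites (0.727%) in all 12. Between 2 libraries, the mean overlap of member sites was 31.3% for the same fraction and genotype, 31.6% for the same fraction and the other genotype, 31.2% for the other fraction and the same genotype and 31.7% where both differed, while sites elsewhere in the coding sequence overlapped by 23.4% to 24.2%. Without the library against its label these 4 means were 32.0%, 31.7%, 31.0% and 31.8%, so which kind of pair shared most turned on that library, and single pairs ranged from 23.7% to 37.8%. Libraries held 1295 to 3743 members each, and overlap at matched depth was not tested.

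**Figure D4:**
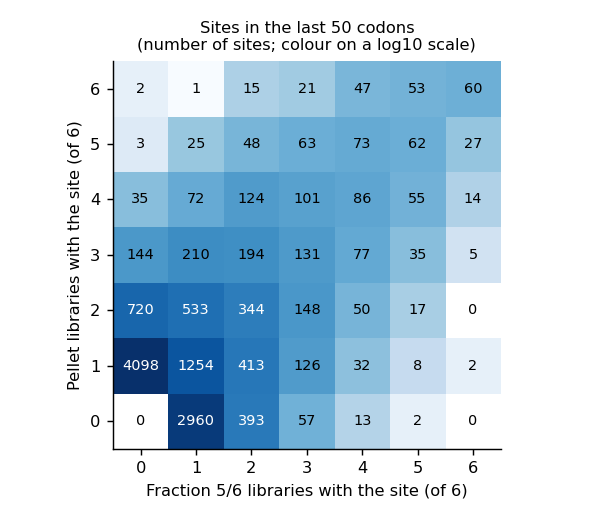
Number of sites in the last 50 codons by the number of pellet libraries (0 to 6) and fraction 5/6 libraries (0 to 6) in which they were found. The 60 sites found in all 12 libraries fill the corner at 6 and 6, and 7058 sites were found in just 1 library.

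The 60 sites found everywhere were mostly taller than their surroundings. Their mean relative height ran from -0.72 to 1.72 with a median of 0.39, and 53 of 60 were above 0, though a tall peak is also more readily found in every library. The tallest relative to its own mRNA was that of Plekhb2, a pleckstrin homology protein of recycling endosomes. Its height was 248, 163 and 129 in the WT pellet, 174, 134 and 139 in the pellet of FMR1 KO, 179, 66 and 83 in WT fraction 5/6 and 130, 261 and 49 in FMR1 KO fraction 5/6. These heights are coverage that was not scaled between libraries, and all 4 groups overlap. The relative height was 1.72 ± 0.31 (SD, n = 12), a peak 3.29 times the median of the rest of the coding sequence.

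Ebna1bp2, a nucleolar factor of ribosome assembly, came next with a peak over the lysine codon AAG 5 codons before its stop. Heights were 50, 33 and 24 in the WT pellet, 54, 28 and 33 in the pellet of FMR1 KO, 86, 34 and 22 in WT fraction 5/6 and 31, 48 and 20 in FMR1 KO fraction 5/6. The groups overlap, and the relative height was 1.66 ± 0.47 over the 10 libraries where the rest of the mRNA had a peak to compare with. Ywhah, the 14-3-3 protein eta, an adaptor that binds phosphorylated partners, had heights of 536, 392 and 273 in the WT pellet, 342, 321 and 233 in the pellet of FMR1 KO, 596, 227 and 218 in WT fraction 5/6 and 399, 535 and 160 in FMR1 KO fraction 5/6. Again no group stands apart, and the relative height was 1.39 ± 0.32 (n = 12).

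The other 7 had mean relative heights between 1.00 and 1.29. Those with a synaptic or signalling role are Rgs2, which speeds GTP hydrolysis by G proteins (1.29 ± 0.82), Git1, a scaffold with Arf GTPase-activating function (1.22 ± 0.90), Rab3c, a small GTPase of synaptic vesicles (1.07 ± 0.32), and Sept5, a presynaptic septin (1.00 ± 0.34). The spread of Rgs2 and Git1 over libraries is more than 2 times that of Rab3c and Sept5, and it includes 1 FMR1 KO fraction 5/6 library at 3.81 for Rgs2. Hspbp1, which helps Hsp70 release its nucleotide, stood at 1.20 ± 0.17 over 8 libraries with a value, 2900011O08Rik at 1.16 ± 0.27 and Sod2, the mitochondrial superoxide dismutase, at 1.03 ± 0.49. Rgs2, Hspbp1 and Sept5 peak within 4 codons of the stop.

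**Figure D5:**
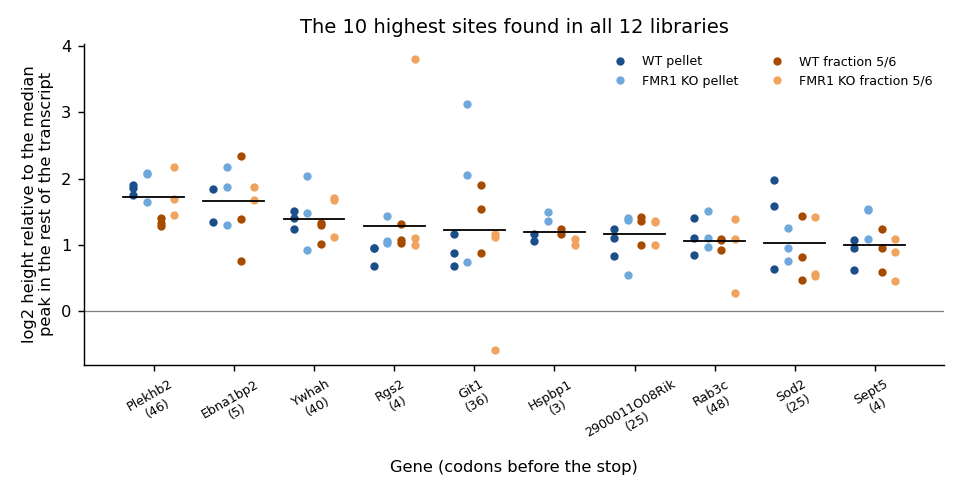
Relative height (log2, y axis) of the 10 tallest member sites found in all 12 libraries (x axis, with codons before the stop), with 1 point per library coloured by group and a bar at the mean. The means run from 1.72 to 1.00, and at each site the points of the pellet and fraction 5/6 overlap.

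Tubb2b shows that an abundant mRNA may have a recurrent peak at its end that is not tall for that mRNA. Its only member site, 5 codons before the stop in the glutamate-rich tail printed above, had heights of 2065, 995 and 996 in the WT pellet, 2346, 1407 and 1144 in the pellet of FMR1 KO, 3513, 1570 and 1487 in WT fraction 5/6 and 908, 1568 and 568 in FMR1 KO fraction 5/6. These are among the highest values of all members, yet the relative height was -0.05 ± 0.53 (n = 12). Tubulin and actin genes have near-identical copies, so reads of their shared stretches cannot be assigned with certainty and their values are uncertain. In 4 genes there were 2 sites in all 12 libraries, namely Ywhag, which encodes the 14-3-3 protein gamma (3 and 21 codons before the stop), the RNA-binding protein gene Hnrnpd (25 and 41), Atp5f1, a subunit of the mitochondrial ATP synthase (25 and 44), and Rap1gds1, an exchange factor for small GTPases (5 and 21). The pair of Ywhag is shown because it includes a site at the stop and one upstream on the same exon, at chr5:135910995-135911024 and chr5:135911043-135911072 on the reverse strand.
Ywhag, 3 codons before the stop: gacgacgacggcggtgaaGGCaacaactaa
Ywhag, 21 codons before the stop: atgcagctgctcCGAgacaacctcacgctc

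At the site next to the stop, Ywhag had heights of 887, 429 and 405 in the WT pellet, 640, 456 and 464 in the pellet of FMR1 KO, 1070, 415 and 439 in WT fraction 5/6 and 518, 629 and 211 in FMR1 KO fraction 5/6. At the upstream site they were 1028, 689 and 518, 702, 446 and 534, 1065, 373 and 519, and 513, 890 and 246 in the same order. Replicate 1 of the WT pellet and of WT fraction 5/6 had the 2 highest values at both sites, and the relative heights were 0.31 ± 0.17 and 0.51 ± 0.15 (n = 12).

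Heights of the sites present in all 12 libraries were tested between groups with limma, on log2 heights centred on the library median and adjusted by Benjamini-Hochberg over all 329 such coding-sequence sites. Between pellet and fraction 5/6, 0 of the 60 member sites were called at an adjusted p under 0.05 (0.608% of all sites tested were), with 6 members at an unadjusted p under 0.05. Between FMR1 KO and WT, 0 were called in the pellet (0% of all sites; 3 members unadjusted) and 0 in fraction 5/6 (0.304% of all sites; 9 members unadjusted). The median difference over the 60 members was 0.02, 0.04 and 0.10 on the log2 scale in the 3 contrasts. When each height was taken relative to the other recurrent sites of its transcript, 0 of 10 testable members were called in any contrast (0%, 0% and 1.02% of the 98 sites tested; 1, 0 and 1 members unadjusted). Without the library labelled WT fraction 5/6 replicate 3, 1 of 13 was called between FMR1 KO and WT in fraction 5/6 (3.51% of 114 sites tested were), namely Tubb2b at -0.86 ± 0.19 (SE; limma adjusted p = 0.0295).

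Without the library labelled WT fraction 5/6 replicate 3, 2 of 65 member sites were called between fractions, where 6.79% of all 368 sites tested were, and they are named for that reason. In the genotype contrasts 0 of 65 were called in the pellet and 0 in fraction 5/6 (0% of all sites in both). Cops3, a subunit of the COP9 signalosome, has a site 43 codons before the stop with heights of 74, 58 and 54 in the WT pellet, 63, 41 and 67 in the pellet of FMR1 KO, 37, 18 and 32 in WT fraction 5/6 and 32, 53 and 24 in FMR1 KO fraction 5/6. The pellet heights lie above all but 1 of the fraction 5/6 heights. Its difference, pellet minus fraction 5/6, was 0.73 ± 0.17 (SE; limma adjusted p = 0.0197) without that library and 0.68 ± 0.16 (adjusted p = 0.105) with it. Rpl5, a protein of the large ribosomal subunit, had a difference of -0.58 (limma adjusted p = 0.0446) at 32 codons before the stop without that library and -0.44 (adjusted p = 0.233) with it. Tubb2b differed between FMR1 KO and WT in fraction 5/6 by -0.91 ± 0.25 (SE; limma adjusted p = 0.230), and by -1.16 ± 0.26 (adjusted p = 0.0588) without that library, neither past the adjusted threshold.

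Few sites belonged to 1 fraction or genotype by presence alone. Sites with a peak in 5 or 6 of 6 libraries on one side and 0 or 1 of 6 on the other numbered 31 for the pellet (0.239% of member sites, where 0.209% of all coding-sequence sites met the same rule) and 12 for fraction 5/6 (0.0926%, against 0.0412%). For FMR1 KO they numbered 11 (0.0849%, against 0.0729%) and for WT 9 (0.0695%, against 0.0777%). With a library left out, at least 4 of 5 or 0 of 5 libraries were asked on the side it came from, so that the rule changes along with the library. Leaving out the library labelled WT fraction 5/6 replicate 3 gave counts of 11, 24, 6 and 31, against 0.110%, 0.125%, 0.0214% and 0.201% of all coding-sequence sites. Without each other fraction 5/6 library in turn, the pellet count was 7 to 12 and the fraction 5/6 count 22 to 37, and without each pellet library they were 54 to 90 and 2 to 5. The order of the counts thus turned with the side from which a library was taken, whichever library it was.

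The sites with the greatest mean height under each rule are printed below to show their sequence, the first for the pellet, fraction 5/6, FMR1 KO and WT in turn. Dcaf7 lies at chr11:106054739-106054768 on the forward strand, Dhx36 at chr3:62470586-62470615 on the reverse strand, and Rad23b and Psmc6 across junctions on the forward strand, at chr4:55385596-55385601 with chr4:55389884-55389907 and at chr14:45346791-45346815 with chr14:45348583-45348587.
Dcaf7, 34 codons before the stop: gaccctatcttgGCCtacacagctgaggga
Dhx36, 13 codons before the stop: aaggctactccaAGGaacttgccaccacgg
Rad23b, 35 codons before the stop: gaacggttaaagGCAttaggatttcctgaa
Psmc6, 43 codons before the stop: ctgagaaatgttTGTactgaagcaggtatg

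The Dcaf7 site, in a WD-repeat adaptor of a ubiquitin ligase, had heights of 220, 139 and 93 in the WT pellet, 224 and 145 in 2 FMR1 KO pellet libraries and 88 in 1 WT fraction 5/6 library, and no peak in the other 6. Its gene's footprint level did not move with this, at 312 CPM in the pellet and 307 in fraction 5/6 (means of 6). The next pellet sites were in Serinc1, a membrane protein with a serine-incorporation role (43 codons before the stop), Unc13a, which primes synaptic vesicles (41), Ppp1r7, a regulator of protein phosphatase 1 (8), and Cited2, a transcriptional co-regulator (5). Serinc1 stood at 64.3 CPM in the pellet and 35.9 in fraction 5/6, and Unc13a at 672 and 499, so for these genes the level moved with the site, while Ppp1r7, at 60.6 and 84.0, and Cited2, at 56.1 and 77.8, moved the other way. The part of the level in the result was not tested.

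For fraction 5/6 the tallest site was in Dhx36, a helicase of G-quadruplexes, with heights of 50, 16 and 37 in WT fraction 5/6, 22, 39 and 16 in FMR1 KO fraction 5/6 and 47 in 1 WT pellet library. Its gene stood at 202 CPM in the pellet and 179 in fraction 5/6. It was followed by Ppp2r2a, a regulatory subunit of protein phosphatase 2A (45), Prune1, a phosphoesterase (4), Zbtb18, a transcriptional repressor in developing neurons (25), and Cttn, the actin-binding protein cortactin (25).

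Between genotypes the tallest FMR1 KO site was in Rad23b, a shuttle of ubiquitylated proteins to the proteasome, with heights of 75 and 84 in 2 FMR1 KO pellet libraries and 100, 128 and 56 in FMR1 KO fraction 5/6, and no peak in any WT library. Its gene stood at 299 CPM in the FMR1 KO and 244 in the WT libraries (means of 6). The others were Klf7, a transcription factor (20 codons before the stop), Ube2z, a ubiquitin-conjugating enzyme (7), Nicn1, a subunit of the tubulin polyglutamylase complex (25), and a further site of Ebna1bp2 (44). In WT the tallest was in Psmc6, an ATPase of the proteasome, with 63, 43 and 49 in the WT pellet, 94 and 31 in WT fraction 5/6 replicates 1 and 2 and 35 in 1 FMR1 KO fraction 5/6 library. The library without a peak among the 6 labelled WT is the one whose Fmr1 level goes against its label. The same holds for Nap1l1, a histone chaperone (39), Nmt1, which attaches myristate to proteins (35), and Ppp2r5e, another subunit of protein phosphatase 2A (18), while Ddx6, an RNA helicase of P-bodies (43), had a peak of 21 in that library and none in WT fraction 5/6 replicate 2.

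Gene families of the cytoskeleton, translation, metabolism and synapse were then followed, by how many of their genes with a coding-sequence peak had a member site in at least 6 libraries. For all genes this was 779 of 5107 (15.3%), and for the 1268 genes with a coding-sequence peak in all 12 libraries, a set of abundant mRNAs, it was 632 (49.8%). Counts of the lists are read against the latter, and they carry no test. RNA-binding proteins had 20 of 33 such genes (60.6%), synaptic vesicle cycle proteins 5 of 8, glycolytic enzymes 6 of 11, proteasome and ubiquitin genes 8 of 16, chaperones 7 of 14, initiation factors 9 of 19, ion pumps and ATP synthase 4 of 8, and cytosolic ribosomal proteins 6 of 13. The actin list had 4 of 4, the 14-3-3 proteins 4 of 5, elongation factors 2 of 3, tubulins 4 of 10, growth cone proteins 2 of 5, microtubule-associated proteins and motors 5 of 15 and chromatin remodelers 1 of 3. Several of these lists hold too few genes to be set apart from 49.8%.

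Members of these lists with the most recurrent sites differed widely in height. Among translation factors, Eef1a1, which brings aminoacyl-tRNA to the ribosome, had a site 40 codons before the stop in 11 libraries with a relative height of 1.01 ± 0.20, while Eef1g, of the same complex, had one in all 12 at -0.72 ± 0.35 (29 codons). On average over these libraries, the first stood above the median of the peaks in the rest of its coding sequence and the second below it. Among chaperones, Hsp90aa1 had a site 36 codons before the stop in 11 libraries at 1.04 ± 0.22, and Hspd1, the mitochondrial chaperonin, one at 48 codons in 11 libraries at -0.09 ± 0.25. Dcx, the microtubule-binding doublecortin of migrating neurons, had a site at 26 codons in 11 libraries (0.76 ± 0.23), and Dync1li2, a dynein light intermediate chain, one at 32 codons in all 12 (0.57 ± 0.63). In the synaptic list, Stx1a, a syntaxin of vesicle fusion, had a site at 20 codons in 9 libraries at 0.82 ± 0.32.

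Sequence at the peaks was described last. The 4 codons GAA, GAG, GAT and GAC encode glutamate and aspartate, and their share was counted at the codon under the peak's middle and the next 2. At 10 to 49 codons before the stop it was 15.6 ± 1.24% at peaks and 13.7 ± 0.33% over the same region of the same transcripts (SD, n = 12), higher at peaks in 12 of 12 libraries. In the last 10 codons it was 15.9 ± 1.62% against 14.9 ± 1.82%, also higher in 12 of 12. The pellet and fraction 5/6 gave 15.3 ± 1.10% and 15.9 ± 1.41% at 10 to 49 codons (n = 6 each), which overlap. The 4-base words AGGA and TGGA are spellings of a motif linked to FMRP binding. They were searched on the sense strand in windows of 35 nt around the middle of the site, and a window with both counted once. They occurred in 48.4% of windows at sites found in at least 6 libraries 10 to 49 codons before the stop, against 45.5% of all windows of that length in the same stretch of the same transcripts, and in the last 10 codons in 43.8% against 42.5%. Over all sites in the last 10 codons, found in 1 library or more, the shares were 41.5% and 41.7%, with the sites slightly lower. In the rest of the coding sequence, sites found in at least 6 libraries held them in 48.1% of windows against 42.3%. A match of 4 letters is frequent in any window and is a description only.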

How the data were processed

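Per the labels, brain footprints from the pellet and fraction 5/6 were size-selected, ligated to linkers, depleted of rRNA and sequenced. According to the submitters' processing notes cutadapt 2.10, Bowtie2 2.3.5, STAR 2.7.8a, Picard, SAMtools 1.19.2 and featureCounts 2.2.0 were used with GRCm38. The deposited peak lists hold transcript positions and the footprint coverage at each zenith, called by the authors in each library and not scaled between libraries. The study's minimum for a peak is a multiple of the transcript's mean, and the lists were taken whole, without a check against it. The deposited gene table holds raw counts, which served to check labels and tissue and to give the footprint level of some named genes. No sample column was left unused (0).

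Coding sequences came from GENCODE M21 on GRCm38, of which 5215 transcripts with at least 200 codons were kept of 6259 in the lists (6230 had an annotation). The middle of a peak is the mean of its first and last base. Sites join, in a chain, peaks whose middles lie within 6 nt of the next. Library measures were compared by exact two-sided permutation tests within strata (400 arrangements), adjusted by Benjamini-Hochberg over 8 tests, or by sign flips (4096 arrangements). Site heights were tested with limma 3.58.1 in R 4.3.3. In a simulation of the pellet against fraction 5/6 comparison alone, 164 of 329 sites were changed, and 92.7% were called at a log2 change of 1 and 100% at 2. With so many sites changed, the adjusted threshold is easier to pass than in the data, where 2 of 329 sites were called. These percentages therefore do not give the recovery in the data. Other steps used Python 3.11.15, pandas 2.3.3, numpy 2.4.6 and pysam 0.24.0. Alternatives varied the window, the minimum length and height, the matching distance, the library left out, the transcripts and a replicate block.

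The members, gene lists and tests were chosen with earlier results of these data known. Named were the 10 sites of greatest mean relative height among those in all 12 libraries, up to 5 called by limma in each direction, up to 5 found in 5 or 6 of 6 libraries of one fraction or genotype and 0 or 1 of the other, up to 5 genes with most sites in all 12 libraries, Tubb2b, Fmr1, and up to 3 genes a list whose site was in most libraries. Snap29 and Cops3 were named after their values were seen.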

Additional observations from a re-analysis of the deposited data

Results flagged for a closer look

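The genotype difference in relative peak density of the last 50 codons, FMR1 KO minus WT, was larger in the pellet than in fraction 5/6 by 0.10 on the log2 scale (exact permutation p = 0.04, adjusted p = 0.16 over the 4 measures), which drew attention as a difference between groups under the same contrast and does not pass the adjusted threshold. Put the other way, pellet minus fraction 5/6 was 0.11 in FMR1 KO and 0.012 in WT, or 0.053 in WT on the other 2 fraction 5/6 libraries with replicate 3 set aside. Without the library labelled WT fraction 5/6 replicate 3, whose Fmr1 footprints go against its label, the difference was 0.061 (exact permutation p = 0.08, adjusted p = 0.32).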

How the results depend on the processing

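The higher peak density and height of the last 50 codons relative to the rest of the coding sequence kept their direction and call under all 21 alternatives (0.54 to 0.85 and 0.050 to 0.087, log2). The lower share of members in the pellet kept its direction under all 22, and passed the adjusted threshold in 10. It was -1.18 points with peaks at or above the library median height, -1.28 with peaks matched in another library, -0.12 on transcripts with a peak in all 12 libraries, -0.098 on those and without the library labelled WT fraction 5/6 replicate 3, and -1.38 with the replicate block (p = 0.0313, the smallest that exact test allows, adjusted p = 0.25), and without each library in turn it ran from -1.58 to -1.17, past the adjusted threshold in 5 of 12. Same-numbered libraries did not deviate from their group means together throughout. Over 329 sites the correlation of these deviations ran from -0.18 to 0.46, highest between FMR1 KO pellet and WT fraction 5/6 at replicate 3. The block changed no other call of these measures. The density difference between fractions was 0.17 at the median height (adjusted p = 0.1), became -0.014 on shared transcripts and -0.011 on those without that library, and was 0.083 without it alone (0.051 to 0.083 without each library). Differences close to 0 changed sign. Density in FMR1 KO against WT was -0.024 at the median height, -0.0095 for matched peaks, -0.0087 for heights of at least 10, and -0.0094 to 0.023 without each library. Relative height in FMR1 KO against WT was -0.013 for coding sequences of at least 400 codons and 0.0017 to 0.014 without each library, and between fractions -0.0031 to 0.0088. The share in the last 10 codons between fractions was 0.065 at the median height, 0.34 at 400 codons, 0.044 on shared transcripts, 0.077 on those without that library and -0.55 to 0.085 without each library, and between genotypes -0.10 for the last 30 codons, -0.21 at 400 codons and -0.29 to 0.34 without each library. The genotype difference in share, pellet minus fraction 5/6, became 0.31 without that library. The cause of these changes was not tested.

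Counts of sites followed the matching distance and the rule of presence. Found in all 12 libraries were 17 member sites at 3 nt and 237 at 12 nt. At 3 nt, 15 sites were of the pellet and 6 of fraction 5/6. With a library left out and 4 of 5 or 0 of 5 asked on its side, the counts for the pellet, fraction 5/6, FMR1 KO and WT were 11, 24, 6 and 31 without that library and ran from 7 to 90, 2 to 37, 4 to 42 and 1 to 57 over all 12 libraries. Between fractions limma called 1 of 234 sites at 12 nt (0.302% of all sites), 1 of 60 with the replicate block (0.912%) and 2 of 65 without that library (6.79%; 0 to 2 without each library). Within transcripts it called 1 of 13 between genotypes in fraction 5/6 without that library (3.51% of all sites), Tubb2b (0 to 1 without each library). Libraries held 1295 to 3743 members each, and the part of depth in these counts was not tested.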

Other observations

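Peaks were fewest at the other end of the coding sequence. The first 50 codons held 14426 peaks, at 7.54 and 6.66 per 1000 codons in the WT and FMR1 KO pellet and 8.42 and 8.48 in WT and FMR1 KO fraction 5/6 (means of 3 libraries). Outside coding sequences of at least 200 codons, 1758 peaks lay in 3′ and 4378 in 5′ untranslated regions. In fraction 5/6 the site of Snap29, a SNARE protein of membrane fusion, 17 codons before the stop, had the smallest p between FMR1 KO and WT among the 60 member sites (log2 difference 1.05 ± 0.26 SE, limma adjusted p = 0.196), with heights of 43, 14 and 13 in WT and 37, 48 and 26 in FMR1 KO. The difference was 0.73 ± 0.25 SE (adjusted p = 0.238) without the library labelled WT fraction 5/6 replicate 3, and neither value passed the threshold.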
